A study of Mus musculus with 36 samples.

Results

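The 9 libraries described here were made from mouse embryonic stem cells (ESCs) carrying LiTEC that had been exposed to blue light, with 3 libraries taken 0, 1 and 4 h after the exposure. They are 9 of the 36 libraries of the series and are defined by their labels for construct, light and time. The series concerns light-induced targeting to condensates, which are membrane-less accumulations of protein and RNA in cells, and LiTEC is the construct used for it. The labels call the cells LiTEC transfected and do not say whether they are a clone or a mixed population, nor which promoter drives the construct. The exposure lasted 30 min under a blue LED panel, at 3.24 mW/cm2 according to the treatment protocol and 3.42 mW/cm2 according to the design text. Of the other libraries, 9 came from LiTEC cells kept in the dark and 9 from wild-type (WT) cells given the same light, with 3 libraries at each of the 3 times. The last 9, from WT cells in the dark, are not compared here. They enter the shared fit through its gene filter, normalization, batch term and estimate of the spread. All of these cultures, the dark and WT ones included, received doxycycline at 2 µg/ml for 2 days and grew in serum-free medium with LIF and inhibitors of MEK and of GSK3β. Polyadenylated RNA was sequenced with a stranded kit, and the files hold read counts per gene. The comparisons ask which RNAs differed between the end of the light and 1 h later, between 1 and 4 h, and over the whole 4 h. They use the same 9 libraries, so they are not independent of each other. Whether the replicates were separate cultures is not stated, so each p-value is read against the scatter among libraries, part of which may be technical.

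Mouse ESCs in this medium are held in naive pluripotency by LIF acting through STAT3, together with a blocked MEK-ERK pathway and stabilised β-catenin. Stressed cells raise heat shock chaperones through the factor HSF1, endoplasmic reticulum chaperones through the unfolded protein response, antioxidant enzymes through NRF2 and cell cycle inhibitors through p53. Each of these programmes is transient and is switched off when its trigger ends. The host genes of small nucleolar RNAs (snoRNAs) are read differently: the snoRNA is cut from an intron, while the spliced host transcript is usually degraded when it is translated, so its level follows both transcription and translation.

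The 9 libraries held 11132970 to 20102278 counts each. One of them stood apart: Gm26917, a gene model over ribosomal RNA sequence, took 16.3% of the counts in 0 h replicate 1 and 9.56 to 12% in the other 8, beside a median of 9.87% over all 36 libraries. Replicate 1 of every group was made in batch 1 and replicates 2 and 3 in batch 2, and all comparisons carry a batch term. All 8 ESC markers were present at 1 CPM (a count per 1000000 counts of the library) or more, with a summed level of 2925 to 3910 CPM. The summed levels of markers of primitive endoderm (3.92 to 7.10 CPM, 1 of 4 markers at 1 CPM or more), mesendoderm (5.50 to 9.27 CPM, 2 of 3), neuroectoderm (5.53 to 18.5 CPM, 2 of 2), trophectoderm (0.524 to 2.63 CPM, 1 of 3) and fibroblasts or feeders (2.52 to 6.42 CPM, 2 of 5) were low. The gene lists of these cell types, which hold other members, had higher sums. They were 288 to 422 CPM for primitive endoderm, 6.47 to 11.4 CPM for mesendoderm and 92.8 to 117 CPM for neuroectoderm. For trophectoderm they were 62.7 to 115 CPM, and for fibroblasts or feeders 295 to 380 CPM. No marker was at 0 in all libraries, and none of the markers of these other cell types was called in any of the 3 comparisons. Any marker with too few counts to pass the filter was not tested, so it could not be called.

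Between 0 and 1 h after the light, 439 of the 18193 tested genes (2.41%) passed an adjusted p of 0.05 in edgeR's quasi-likelihood test, 256 of them higher and 183 lower at 1 h. In LiTEC cells kept dark for the same interval 48 genes passed (0.264%, or 0.0824% higher and 0.181% lower), and in lit WT cells 900 genes (4.95%, or 2.65% and 2.29%). The 439 genes had a median absolute log2 fold change of 0.68, and in the dark cells a median of 0.25 in the same direction. They were chosen in the lit libraries, which by itself favours a larger value there. Of the 439, 392 had the same sign in the dark cells (89.3%, beside 61.3% of all tested genes), and 31 were called there too, which is 7.06% of the lit calls and 64.6% of the dark ones. The difference between the lit and the dark change itself passed for 2 genes (0.011%). The lit count was 214 without 0 h replicate 1, 248 without 0 h replicate 3, 291, 248 and 290 without 1 h replicates 1, 2 and 3, and 133 with batch 2 alone. The dark count was 17, 4 and 13 without dark 0 h replicates 1, 2 and 3, and 11 and 2 without dark 1 h replicates 2 and 3. The WT count was 540 and 560 without WT 0 h replicates 1 and 2, and 484 without WT 1 h replicate 1. Under other settings the dark count was 98 with replicate number as a block, 9 without a batch term, 10 with batch 2 alone, 32 with the compared groups only, 136 with no filter and 86 with DESeq2. In the text below, a lit LiTEC gene call, or a call of a difference, for which no library is named held when each library compared was left out in turn. Calls of single genes in the dark cells were not recomputed in this way. With batch 2 alone, which leaves 2 libraries a group, the first-hour calls of Snhg5, Dancr, Srsf10, Nfkbid and Id1 were lost, and without a batch term that of Arc.

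**Figure D1:**
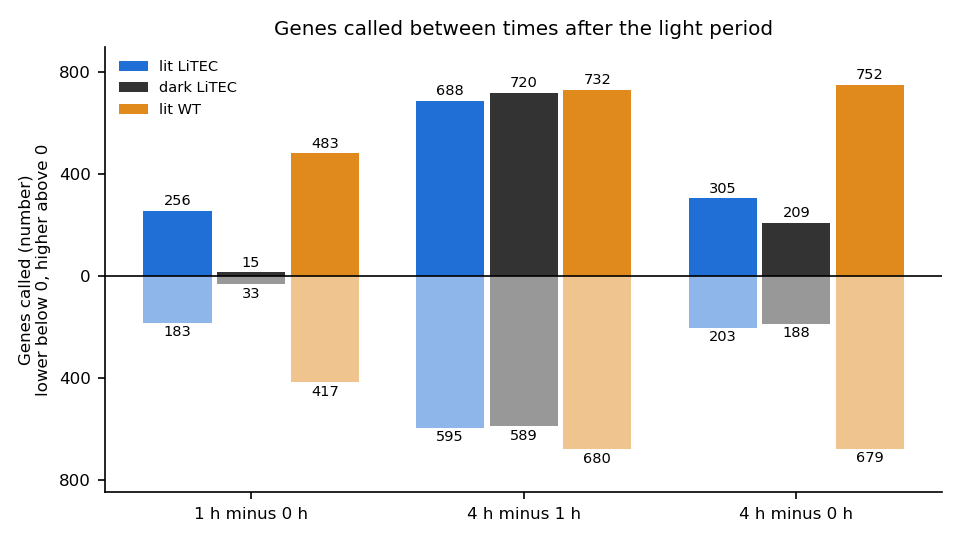
Number of genes called higher (up) and lower (down) in each of the 3 time steps (horizontal axis) for lit LiTEC, dark LiTEC and lit WT cells. From 0 to 1 h, 439 genes were called in lit LiTEC, 48 in dark LiTEC and 900 in lit WT cells, while from 1 to 4 h the 3 counts were 1283, 1309 and 1412.

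Of 18 tested host genes of snoRNAs, 9 rose in the first hour and none fell, where 1.41% of all tested genes were called higher and 1.01% lower, and the median log2 fold change over the list was 0.42, beside 0.00 over all tested genes. In the dark cells none of the 18 was called (median 0.15), and in lit WT cells 12 rose (median 0.70). The count in lit LiTEC cells was 6 without 0 h replicate 1, 6 without 1 h replicate 3 and 7 without 0 h replicate 2. Summed over the list, the host transcripts made up 841, 805 and 822 CPM at 0 h, 1142, 1138 and 1140.3 CPM at 1 h and 1098, 1029 and 1061 CPM at 4 h. The 0 h libraries were the low ones. The dark means were 1091 ± 133, 1225 ± 47.2 and 1118 ± 24.7 CPM (SD, n = 3) at the same times. At 1 h the lit libraries still lay below all dark ones (1177, 1226 and 1272 CPM). At 4 h the lit and the dark libraries (1142, 1093 and 1118 CPM) overlapped.

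Snhg4, whose introns carry box H/ACA snoRNAs, stood at 76.7, 83.7 and 80.7 CPM at 0 h, 134, 143 and 142 CPM at 1 h and 138, 134 and 146 CPM at 4 h. The groups at 0 and 1 h did not overlap, and the 4 h libraries stayed within or next to the range at 1 h. Its log2 fold change was 0.80 ± 0.10 (SE) from 0 to 1 h (edgeR adjusted p = 6.81e-06), with 0.14 ± 0.10 in the dark, where the means were 148 ± 10.4, 162 ± 14 and 155 ± 5.66 CPM (SD, n = 3). The difference of 0.66 ± 0.14 between lit and dark did not pass in the first hour (edgeR adjusted p = 0.0629). Over the whole 4 h the lit change was 0.80 ± 0.10 (edgeR adjusted p = 8.35e-06). Gas5, a growth arrest transcript with a box C/D snoRNA in almost every intron (ENSMUSG00000053332.13, GRCm38 chr1:161034422-161038539, plus strand), stood at 168, 164 and 150.3 CPM, then 228, 233 and 224 CPM, then 214, 215 and 208 CPM. All 3 libraries at 0 h were below all 6 later ones, and the log2 fold change of 0.51 ± 0.06 from 0 to 1 h passed (edgeR adjusted p = 1.02e-05). The locus overlaps Zbtb37 on the opposite strand, and whether the counting used the strand is not given in the sources used here.

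Snhg1, another multi-snoRNA host, went from 108, 109 and 102 CPM to 154, 159.9 and 149 CPM in the first hour and stood at 135, 132 and 128 CPM at 4 h. The 4 h libraries were between the other groups, with no overlap. Snhg5, a host of box C/D snoRNAs, rose from 58.6, 62.8 and 64.2 CPM to 85.9, 87.7 and 90.8 CPM, a log2 fold change of 0.51 ± 0.09 (edgeR adjusted p = 0.00044). Dancr, a host long noncoding RNA known for keeping progenitor cells undifferentiated, was at 18.7, 20.3 and 17.3 CPM at 0 h and 30.6, 27.8 and 31.4 CPM at 1 h, without overlap, a log2 fold change of 0.68 ± 0.14 (edgeR adjusted p = 0.0041). At 4 h its values of 29.9, 22.3 and 31.0 CPM were spread more widely. The 0 to 4 h change of Dancr (0.57 ± 0.14, edgeR adjusted p = 0.0203) lost its call without any one of 0 h replicate 1 (0.0969), 0 h replicate 3 (0.0862), 4 h replicate 1 (0.0926) and 4 h replicate 3 (0.135), values that are adjusted p.

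**Figure D2:**
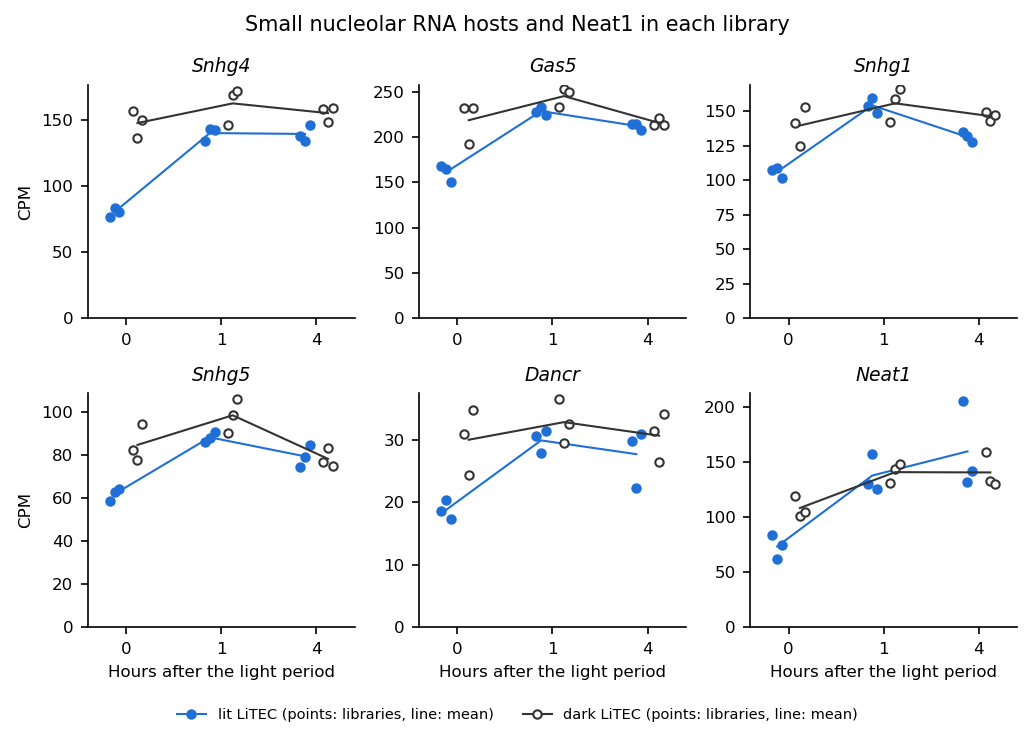
CPM (vertical axes) of 5 snoRNA host genes and of Neat1 in each lit and dark LiTEC library at 0, 1 and 4 h (horizontal axes), with lines through the group means of 3 libraries. For Snhg4 the lit libraries at 0 h (76.7 to 83.7 CPM) lie below every later lit library, while the dark means stay between 148 and 162 CPM.

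Neat1, the RNA scaffold of nuclear paraspeckles (ENSMUSG00000092274.3, GRCm38 chr19:5824708-5845478, minus strand), was at 83.7, 62.2 and 74.4 CPM at 0 h, 130.3, 158 and 126 CPM at 1 h and 205, 132 and 142 CPM at 4 h. Every later library exceeded every 0 h library, and the log2 fold changes were 0.92 ± 0.12 to 1 h (edgeR adjusted p = 1.06e-05) and 1.11 ± 0.12 to 4 h (edgeR adjusted p = 1.65e-06). In the dark cells the change of Neat1 to 1 h was 0.40 ± 0.12 (edgeR adjusted p = 0.212), and the difference of 0.53 ± 0.17 between lit and dark did not pass (edgeR adjusted p = 0.601). Tsix, the antisense RNA of the X inactivation locus, rose by 0.81 ± 0.12 on the log2 scale (edgeR adjusted p = 0.000132); it overlaps Xist on the opposite strand.

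Among 30 tested genes of splicing regulators and temperature-responsive RNA-binding proteins, 6 rose and none fell in the first hour (median 0.04). Over all tested genes 1.41% were called higher and 1.01% lower in that step. The list had 3 risers without 1 h replicate 2, and 4 risers and 1 that fell without 1 h replicate 3. With replicate number as a block the numbers were 6 and 1. The list summed to 9513 ± 42.4 CPM at 0 h and 9877 ± 103 CPM at 1 h in the light (SD, n = 3). In the dark the sums were 9743 ± 169 and 10040 ± 82.5 CPM, so the mean rose there too. Cirbp, the cold-inducible RNA-binding protein, went from 22.9, 14.8 and 14.6 CPM to 32.7, 29.1 and 27.4 CPM, with no overlap, and stood at 30.6, 28.2 and 25.3 CPM at 4 h. Its log2 fold change of 0.77 ± 0.12 (edgeR adjusted p = 0.000157) was accompanied by 0.53 ± 0.12 in the dark cells (edgeR adjusted p = 0.0368). Rbm39, an SR-like splicing regulator, rose from 327, 369.7 and 335 CPM to 474, 485 and 434 CPM, again without overlap (log2 fold change 0.43 ± 0.06, edgeR adjusted p = 2.9e-05). Srsf10, a splicing repressor active after heat shock, rose by 0.22 ± 0.04 (edgeR adjusted p = 0.00371); the call was also lost with only the compared groups in the fit. Zfp941, a zinc finger protein gene, stood at 8.90, 15.8 and 13.4 CPM, 24.1, 25.6 and 22.7 CPM and 19.6, 24.4 and 19.9 CPM at the 3 times, and its first-hour change of 0.95 ± 0.12 passed (edgeR adjusted p = 1.21e-05). Yod1, a deubiquitinase of the VCP pathway, rose by 0.85 ± 0.11 in the light (edgeR adjusted p = 1.02e-05) and by 0.46 ± 0.11 in the dark (edgeR adjusted p = 0.0484).

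Gadd45b fell in the first hour. This gene, a stress-induced regulator of MAP kinase signalling and DNA repair, was at 21.8, 15.6 and 16.3 CPM at 0 h, 11.0, 7.10 and 7.83 CPM at 1 h and 14, 12.2 and 12.1 CPM at 4 h. The 3 libraries at 0 h exceeded all 6 later ones, and the dark libraries had means of 9.40 ± 0.938, 9.29 ± 3.46 and 12.6 ± 1.89 CPM (SD, n = 3). Its log2 fold change was −1.05 ± 0.20 (edgeR adjusted p = 0.00154), with −0.05 in the dark, and the difference of −1.01 ± 0.29 did not pass (edgeR adjusted p = 0.427). Nfkbid, an atypical nuclear IκB protein, fell from 8.85, 7.96 and 8.76 CPM to 4.42, 3.73 and 5.86 CPM (log2 fold change −0.87 ± 0.16, edgeR adjusted p = 0.00129, 0.01 in the dark). At 4 h it stood at 8.46, 5.47 and 7.59 CPM, a range that overlapped both earlier groups. The difference between the lit and the dark first-hour change of Nfkbid did not pass. Rassf1, a scaffold of the Hippo pathway, fell from 24.1, 19.6 and 23.3 CPM to 12.3, 11.1 and 10.1 CPM (−1.01 ± 0.13, edgeR adjusted p = 1.02e-05) and stood at 21.7, 16.4 and 19.1 CPM at 4 h. The dark cells showed a change of Rassf1 of −0.69 ± 0.13 over the first hour (edgeR adjusted p = 0.0145).

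Of 34 tested immediate early genes, 3 fell in the first hour and none rose (median −0.18, beside 1.01% of all tested genes lower and 1.41% higher); with the block 5 fell and 1 rose. From 1 to 4 h 5 rose and 5 fell, beside 3.78% of all tested genes higher and 3.27% lower. Over 4 h 3 fell and none rose, beside 1.12% of all tested genes lower and 1.68% higher. In the dark the numbers that rose and fell were 0 and 1, 7 and 2, and 5 and 1 in the 3 steps. Nr4a1, an orphan nuclear receptor of the immediate early class, was at 46.3, 45.7 and 40.5 CPM at 0 h, 30.8, 29.1 and 29.2 CPM at 1 h and 51.8, 44.3 and 48.5 CPM at 4 h, so the 1 h libraries were the low ones. It fell by 0.57 ± 0.08 to 1 h (edgeR adjusted p = 6.69e-05) and rose by 0.70 ± 0.08 from 1 to 4 h (edgeR adjusted p = 1.56e-06). The dark cells had changes of −0.44 ± 0.08 (edgeR adjusted p = 0.0145) and 0.67 ± 0.08 (edgeR adjusted p = 2.68e-06). Arc, best known from activated neurons, also fell (−0.59 ± 0.10, edgeR adjusted p = 0.000253) and then rose (0.60 ± 0.09, edgeR adjusted p = 9.66e-05). Fos and Egr1, the archetypal immediate early genes, were not called: Fos changed by −0.36 ± 0.38 and Egr1 by −0.44 ± 0.37 in the first hour (edgeR adjusted p = 0.78 and 0.692). Id1, a target of BMP signalling, fell by 1.03 ± 0.20 (edgeR adjusted p = 0.00261), with −0.89 ± 0.22 in the dark (edgeR adjusted p = 0.0691). Hist1h2ae, a replication-dependent histone gene, fell by 0.82 ± 0.13 (edgeR adjusted p = 0.000263); such transcripts lack a poly(A) tail and have many near-identical copies, so their counts are uncertain.

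From 1 to 4 h after the light 1283 genes passed (7.05%), 688 higher and 595 lower at 4 h, and 2088 when replicate number was used as a block, beside 2043 in the dark and 2135 in lit WT cells under the same block. In dark LiTEC cells 1309 genes passed over the same interval (7.2%, or 3.96% higher and 3.24% lower) and in lit WT cells 1412 (7.76%, or 4.02% and 3.74%). Of the 1283 genes, 1237 had the same sign in the dark (96.4%, beside 71.5% of all tested genes), and 601 were called there too, 46.8% of the lit calls and 45.9% of the dark ones. Their median absolute log2 fold change was 0.46 in the lit cells and 0.34, in the same direction, in the dark. The difference between the lit and the dark change passed for 4 genes (0.022%, or 0.0055% with a more positive and 0.0165% with a more negative change in the light; 13 with the block). The count of 1283 was 767, 799 and 822 without 1 h replicates 1, 2 and 3, 665 without 4 h replicate 1, 701 without 4 h replicate 3, and 251 with batch 2 alone. The dark count was 796 and 780 without dark 1 h replicates 2 and 3, and 867, 828 and 767 without dark 4 h replicates 1, 2 and 3. The WT count was 891 and 869 without WT 1 h replicates 1 and 3, and 858 and 812 without WT 4 h replicates 1 and 2. With batch 2 alone the calls of Atf3, Id3, Lefty1, Slc30a1, Mdm2 and Ccne2 in this step were lost, and without a batch term those of Arc, Lefty1 and Trp53inp1.

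A large fall was seen in a pair of heat shock genes. Hspa1a and Hspa1b encode the inducible cytosolic HSP70 chaperone and lie next to each other (ENSMUSG00000091971.3, GRCm38 chr17:34969190-34972156, and ENSMUSG00000090877.3, chr17:34956436-34959238, both minus strand). The genes are near-identical copies, so reads may have been split between them or dropped, and Gm20481 overlaps Hspa1a on the opposite strand. Their promoters are shown because both are textbook targets of HSF1, which binds inverted repeats of GAA. Each line gives the 250 bases before the RefSeq start site (GRCm38.p6, minus strand, 5′ to 3′), at chr17:34972157-34972406 for Hspa1a and chr17:34959239-34959488 for Hspa1b, with the motif GAANNTTC in capitals.
Hspa1a: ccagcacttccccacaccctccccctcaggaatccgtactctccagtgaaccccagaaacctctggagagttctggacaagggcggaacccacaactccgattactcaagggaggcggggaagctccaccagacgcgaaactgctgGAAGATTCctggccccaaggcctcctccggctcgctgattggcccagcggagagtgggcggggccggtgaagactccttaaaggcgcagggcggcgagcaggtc
Hspa1b: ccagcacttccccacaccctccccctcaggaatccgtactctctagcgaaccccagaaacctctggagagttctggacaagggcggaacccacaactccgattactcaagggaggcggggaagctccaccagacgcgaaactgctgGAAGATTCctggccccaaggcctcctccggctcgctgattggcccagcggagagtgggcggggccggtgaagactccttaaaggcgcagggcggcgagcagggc
The windows differ at 3 of 250 bases, and each holds the motif once, starting at position −104 from the start site. GAANNTTC, an inverted pair of the heat shock unit, is its own reverse complement, so both strands were searched at once. It was present in 6.69% of 32851 promoters of this length, and in at least 1 promoter of 7.73% of 27025 genes. Of 19 heat shock chaperone genes with a RefSeq promoter, 7 held it (36.8%), and none of Hsph1, Dnajb1, Dnajb4 and Chordc1 did in this window. The same inverted pair with its arms in the opposite order was not counted. Hsph1 and Dnajb4 each have that order in a window of this length. A gene without GAANNTTC can therefore still hold an inverted pair of the heat shock unit.

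Hspa1a stood at 6.71, 2.44 and 6.30 CPM at 0 h, 10.4, 3.38 and 15.4 CPM at 1 h and 2.05, 0.614 and 0.785 CPM at 4 h. The 0 and 1 h groups overlapped, and all 6 of their libraries exceeded all 3 at 4 h. In the dark cells the means were 0.713 ± 0.357, 0.715 ± 0.0699 and 0.957 ± 0.284 CPM, and in lit WT cells 49.5 ± 20.8, 27.3 ± 15.4 and 1.11 ± 0.533 CPM (SD, n = 3). The log2 fold change from 1 to 4 h was −3.12 ± 0.49 (edgeR adjusted p = 9.93e-05), and the dark value was 0.34 ± 0.80. The difference between the lit and the dark change, −3.46 ± 0.97, did not pass (edgeR adjusted p = 0.582). The first-hour change of 0.90 ± 0.40 did not pass (edgeR adjusted p = 0.298), but with replicate number as a block it did (0.88, edgeR adjusted p = 0.0299). From 0 to 4 h Hspa1a fell by 2.22 ± 0.54 (edgeR adjusted p = 0.0172), a call lost without 0 h replicate 1, 0 h replicate 3, 4 h replicate 2 or 4 h replicate 3 (adjusted p = 0.0813, 0.0843, 0.0782 and 0.0818).

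Hspa1b was at 27.4, 15.2 and 24.4 CPM at 0 h, 42.3, 18.8 and 46.6 CPM at 1 h and 32.9, 7.37 and 7.74 CPM at 4 h. Replicate 1 at 4 h was as high as the earlier libraries, and the groups overlapped. The dark cells showed a similar high value in replicate 1, with 32.7, 9.42 and 7.41 CPM at 4 h after 9.37, 4.82 and 6.34 CPM at 1 h. The lit change from 1 to 4 h was −1.39 ± 0.37 (edgeR adjusted p = 0.0171), lost without 1 h replicate 3 (−0.86, adjusted p = 0.195), 4 h replicate 2 (adjusted p = 0.0817) or 4 h replicate 3 (adjusted p = 0.0964).

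Few other chaperone genes passed. Of 24 tested heat shock chaperone genes, 1 rose and 2 fell in the first hour (median −0.04), beside 1.41% of all tested genes higher and 1.01% lower. From 1 to 4 h 3 chaperone genes fell (median of the list −0.08), beside 3.27% of all tested genes. They were Hspa1a and Hspa1b themselves and Dnajb4. None was called in the first hour without 0 h replicate 1 or without 1 h replicate 2, 1 rose and none fell without 1 h replicate 1, 1 rose and 1 fell without 0 h replicate 2 or 0 h replicate 3, and 2 rose and 2 fell with the block. Dnajb1, the HSP40 partner of inducible HSP70, changed by −0.13 ± 0.09 and then by −0.11 ± 0.09 (edgeR adjusted p = 0.611 and 0.543). Hsph1, the HSP110 nucleotide exchange factor, fell by 0.44 ± 0.12 in the first hour (edgeR adjusted p = 0.0484), a call lost without 0 h replicate 1, 0 h replicate 3, 1 h replicate 1 or 1 h replicate 2 (adjusted p = 0.297, 0.165, 0.0771 and 0.315). Dnajb4, another HSP40 protein, rose by 0.57 ± 0.13 and then fell by 0.53 ± 0.13 (edgeR adjusted p = 0.013 and 0.0107). The first of these calls was lost without 0 h replicate 1 (0.0785) or 1 h replicate 2 (0.0792) and the second without 1 h replicate 2 (0.0602), all adjusted p. From 0 to 4 h 3 chaperone genes fell, Hspa1a among them, and none rose, beside 1.12% of all tested genes lower and 1.68% higher. With the block 6 chaperone genes fell, and 1 did without 0 h replicate 1 or 4 h replicate 2. Chordc1, an HSP90 co-chaperone, was among the 3 that fell, with a change of −0.36 ± 0.06 (edgeR adjusted p = 0.000866).

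**Figure D3:**
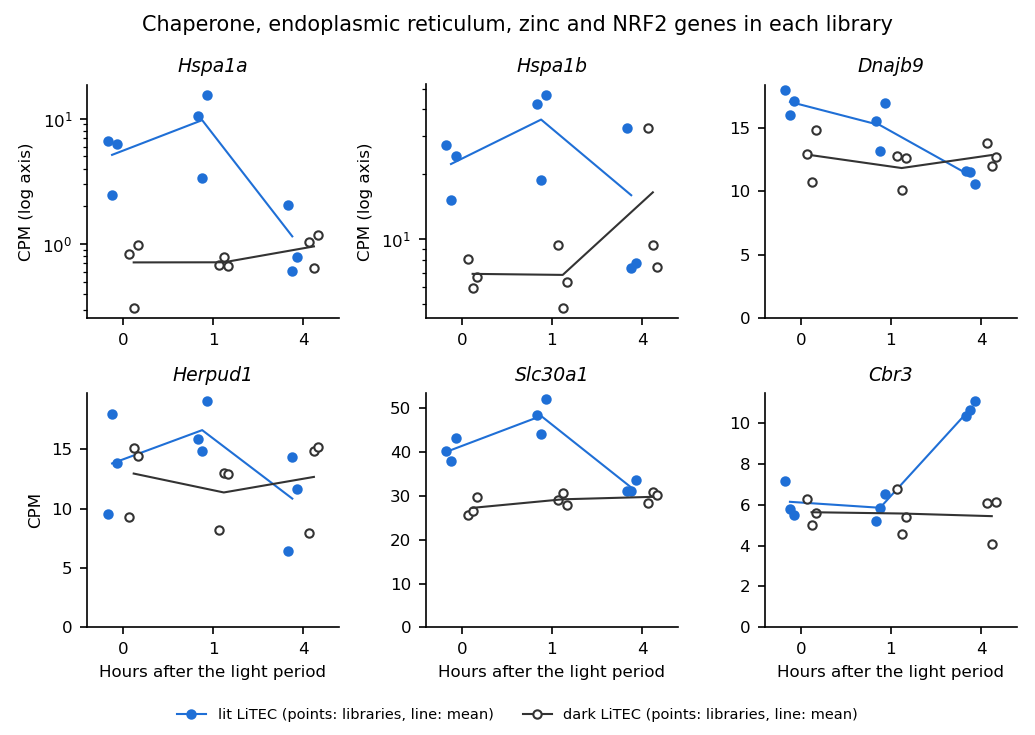
CPM (vertical axes, logarithmic for Hspa1a and Hspa1b) of 6 stress-related genes in each lit and dark LiTEC library at 0, 1 and 4 h, with lines through the group means of 3 libraries. The lit Hspa1a libraries at 0 and 1 h (2.44 to 15.4 CPM) lie above those at 4 h (0.614 to 2.05 CPM), and the lit Cbr3 libraries at 4 h (10.3 to 11.1 CPM) lie above all others.

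Of 24 tested genes of the unfolded protein response, 5 fell from 1 to 4 h and none rose (median −0.09, beside −0.01 over all tested genes, of which 3.27% were called lower and 3.78% higher). The count was 0 without 1 h replicate 1, 1 without 4 h replicate 1 and 2 without 1 h replicate 3 or 4 h replicate 3. The list summed to 3786 ± 234 CPM at 1 h and 3496 ± 18.8 CPM at 4 h in the light (SD, n = 3). In the dark the sums were 3354 ± 125 and 3121 ± 80.6 CPM, so they were lower at 4 h there too. Dnajb9, an endoplasmic reticulum co-chaperone of IRE1 and BiP, was at 18.0, 16 and 17.1 CPM, 15.5, 13.2 and 17.0 CPM and 11.6, 11.5 and 10.6 CPM at the 3 times. All 3 libraries at 4 h were below all 6 earlier ones and close to the dark mean of 12.9 ± 0.905 CPM (SD, n = 3). Over the whole 4 h Dnajb9 fell by 0.60 ± 0.12 (edgeR adjusted p = 0.00275), with 0.00 in the dark. The difference between the lit and the dark change of Dnajb9 did not pass. The fall of Hspa5, the chaperone BiP, was −0.30 ± 0.08 from 1 to 4 h (edgeR adjusted p = 0.0144), lost without 1 h replicate 1, 4 h replicate 1 or 4 h replicate 2 (adjusted p = 0.105, 0.0615 and 0.0549). Slc30a1, the zinc exporter of the plasma membrane and a target of the metal sensor MTF1, was at 40.3, 37.9 and 43.2 CPM, 48.6, 44.1 and 52.1 CPM and 31.1, 31.1 and 33.6 CPM. The 4 h libraries were the lowest, without overlap, and close to the dark means of 27.3 ± 2.16, 29.2 ± 1.28 and 29.8 ± 1.37 CPM (SD, n = 3). Its log2 fold change from 1 to 4 h was −0.60 ± 0.13 (edgeR adjusted p = 0.0027), with 0.03 in the dark. The difference between the lit and the dark change of Slc30a1 did not pass. No other of the 8 tested genes of zinc handling was called in that step.

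Several targets of NRF2 rose. Of 29 tested members, 4 rose from 1 to 4 h and 6 from 0 to 4 h, and none fell (medians 0.13 and 0.14, beside 3.78% and 1.68% of all tested genes called higher in the 2 steps). In the dark cells 1 rose and 1 fell from 1 to 4 h, and 2 rose and 1 fell from 0 to 4 h. The count of 6 was 3 without 0 h replicate 1 or 4 h replicate 3. The count of 4 was 2 without 1 h replicate 1, 1 h replicate 3 or 4 h replicate 2, and 1 gene fell without 1 h replicate 3 or with the block. Cbr3, a carbonyl reductase, stood at 7.16, 5.79 and 5.48 CPM at 0 h, 5.21, 5.82 and 6.52 CPM at 1 h and 10.3, 10.6 and 11.1 CPM at 4 h, so the 4 h libraries were high without overlap. It rose by 0.87 ± 0.15 from 1 to 4 h (edgeR adjusted p = 0.000392), with −0.03 in the dark, where the means were 5.57 ± 1.12 and 5.44 ± 1.19 CPM (SD, n = 3). The difference of 0.90 ± 0.23 from the dark change did not pass (edgeR adjusted p = 0.431). Gclc, the catalytic subunit that makes the first step of glutathione synthesis, rose by 0.38 ± 0.06 from 0 to 4 h (edgeR adjusted p = 0.000587) and by 0.27 ± 0.06 in the dark (edgeR adjusted p = 0.018). Sqstm1, the autophagy receptor p62, rose by 0.30 ± 0.05 (edgeR adjusted p = 0.00102) and by 0.25 ± 0.05 in the dark (edgeR adjusted p = 0.0113). Hmox1, haem oxygenase 1, rose by 0.38 ± 0.09 (edgeR adjusted p = 0.0104), a call lost without 0 h replicate 1 (adjusted p = 0.0798) or 4 h replicate 3 (adjusted p = 0.106).

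Several of the strong movers from 1 to 4 h had a similar change in the dark cells, while the dark change of Atf3 was smaller. Ppp1r10, a nuclear regulator of protein phosphatase 1, was at 91.7, 107 and 99.9 CPM, 161, 145 and 161 CPM and 60.5, 63.2 and 64.5 CPM, high at 1 h and low at 4 h without overlap. It fell by 1.31 ± 0.10 (edgeR adjusted p = 2.13e-10) and its change in the dark was −1.15 ± 0.10 (edgeR adjusted p = 2.56e-09). Pla2g4c, a cytosolic phospholipase A2, went from 5.61, 7.10 and 8.49 CPM to 2.48, 2.46 and 2.41 CPM (−1.53 ± 0.23, edgeR adjusted p = 6.17e-05), with −1.11 ± 0.25 in the dark (edgeR adjusted p = 0.00395). Atf3, a stress-induced transcription factor, was low throughout, at 0.902, 1.36 and 0.441 CPM, 2.43, 1.57 and 2.96 CPM and 0.423, 0.553 and 0.366 CPM. Its 1 h libraries were the high ones, and the fall of −2.38 ± 0.49 to 4 h passed (edgeR adjusted p = 0.00212), with −0.16 ± 0.45 in the dark (edgeR adjusted p = 0.894). Atf3 was not among the 4 genes whose difference between the lit and the dark change passed in this step. Id3, a BMP target, fell by 1.5 ± 0.28 (edgeR adjusted p = 0.000937) and its change in the dark was −1.31 ± 0.28 (edgeR adjusted p = 0.00245).

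Notch1, the receptor of the Notch pathway, rose from 107, 98.5 and 95.2 CPM at 1 h to 160.1, 139.9 and 146 CPM at 4 h, without overlap. Its log2 fold change was 0.57 ± 0.06 (edgeR adjusted p = 1.74e-07) and 0.44 ± 0.06 in the dark (edgeR adjusted p = 9.61e-06). Per1, a repressor of the circadian clock, rose from 21.2, 20.4 and 22.6 CPM to 32.4, 32.8 and 31.6 CPM (0.59 ± 0.08, edgeR adjusted p = 5.99e-06, and 0.67 ± 0.08 in the dark). It was the 1 call among 20 tested clock genes in that step, beside 3.78% of all tested genes higher and 3.27% lower. The clock list had 2 that rose with the block and 1 that fell without 4 h replicate 1. Lefty1, an inhibitor of Nodal, was at 30.0, 19.3 and 21.3 CPM, 26.1, 16.1 and 11.9 CPM and 54.8, 22.5 and 27.5 CPM, and replicate 1 was the highest at each time. It rose by 0.93 ± 0.21 from 1 to 4 h (edgeR adjusted p = 0.00444), and the change in the dark was 0.18 ± 0.20 (edgeR adjusted p = 0.668). The difference between the lit and the dark change of Lefty1 did not pass. Fgf4, the autocrine ligand of the FGF receptor in ESCs, rose by 0.55 ± 0.09 (edgeR adjusted p = 0.000239). Among 16 tested FGF and ERK genes 2 rose and 3 fell, beside 3.78% of all tested genes higher and 3.27% lower. With replicate number as a block 2 rose and 7 fell, beside 1079 higher and 1009 lower of all 18193 tested genes. Without 1 h replicate 1 the numbers were 1 and 2, without 1 h replicate 2 they were 1 and 3, without 4 h replicate 1 they were 1 and 1, and without 4 h replicate 3 they were 1 and 2.

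Of 23 tested p53 targets, 6 rose and 2 fell from 1 to 4 h (median 0.18, beside 3.78% of all tested genes higher and 3.27% lower). In the dark 11 rose and 1 fell (median 0.34, beside 3.96% and 3.24%). With replicate number as a block 10 rose and 2 fell in the lit cells. The number that fell was 0 without 1 h replicate 3 or 4 h replicate 2 and 1 without 4 h replicate 1 or 4 h replicate 3. Polk, a translesion DNA polymerase, rose by 0.56 ± 0.08 (edgeR adjusted p = 5.52e-05) and by 0.88 ± 0.09 in the dark (edgeR adjusted p = 2.5e-08). Mdm2, the ubiquitin ligase that limits p53, rose by 0.26 ± 0.06 (edgeR adjusted p = 0.00474), and Trp53inp1, a p53-induced autophagy and death regulator, by 0.44 ± 0.08 (edgeR adjusted p = 0.000274). Cdkn1a, the inhibitor p21, had a change of 0.32 ± 0.10 that did not pass (edgeR adjusted p = 0.0525), but did with the block (0.32, edgeR adjusted p = 0.0196). In the dark it rose by 0.65 ± 0.10 (edgeR adjusted p = 0.000108).

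Of 27 tested genes of the G1/S transition, 5 fell from 1 to 4 h and none rose (median −0.13, beside 3.27% of all tested genes lower and 3.78% higher). The block gave 11, and the count was 3 without 1 h replicate 1, 1 h replicate 3 or 4 h replicate 1. The list summed to 4944 ± 298 CPM at 1 h and 4595 ± 187 CPM at 4 h in the light (SD, n = 3). In the dark the sums were 4847 ± 127 and 4529 ± 162 CPM, a similar fall. Ccne2, the cyclin E2 that drives entry into S phase, fell by 0.40 ± 0.08 (edgeR adjusted p = 0.00186). None of 22 tested G2/M genes was called in any of the 3 comparisons. Among the 30 splicing and RNA-binding genes 3 rose and 4 fell from 1 to 4 h, beside 3.78% of all tested genes higher and 3.27% lower. With the block 6 of the 30 rose and 5 fell. The number that fell was 2 without 1 h replicate 2 or without any 1 of the 4 h replicates. Srsf5, an SR splicing protein, rose by 0.37 ± 0.06 (edgeR adjusted p = 8.54e-05), and Srsf10 fell by 0.27 ± 0.04 (edgeR adjusted p = 0.000164) after its rise in the first hour. Pdk1, the kinase that inhibits pyruvate dehydrogenase, fell by 0.37 ± 0.06 (edgeR adjusted p = 5.72e-05).

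Over the whole interval from 0 to 4 h, 508 genes passed (2.79%), 305 higher and 203 lower at 4 h, and 1045 with replicate number as a block, beside 926 in the dark and 2294 in lit WT cells under the same block. In dark LiTEC cells 397 passed (2.18%, or 1.15% higher and 1.03% lower) and in lit WT cells 1431 (7.87%, or 4.13% and 3.73%). Of the 508 genes, 456 had the same sign in the dark (89.8%, beside 64.2% of all tested genes), with a median change of 0.40 in the lit and 0.20 in the dark cells. There were 107 genes called in both, 21.1% of the lit calls and 27.0% of the dark ones. The difference between lit and dark passed for 6 genes (0.033%, or 0.0165% in each direction; 18 with the block). The count of 508 was 217 without 0 h replicate 1, 295 without 0 h replicate 2, 218, 322 and 255 without 4 h replicates 1, 2 and 3, and 42 with batch 2 alone. The dark count lay between 120 and 264 when any 1 of the 6 dark libraries was left out. The WT count was 823 and 777 without WT 0 h replicates 1 and 2, and 831, 781 and 893 without WT 4 h replicates 1, 2 and 3. With batch 2 alone the calls of Chordc1, Dnajb9, Gclc, Myc and Ctgf over 4 h were lost, and without a batch term those of Gclc, Myc, Inhbb and Ctgf.

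Of the 18 snoRNA hosts, 7 were higher at 4 h than at 0 h and none was lower (median 0.33, where 1.68% of all tested genes were called higher and 1.12% lower), while none was called in the dark. The count was 3 without 0 h replicate 1 or 4 h replicate 1, and 4 without 0 h replicate 2 or 4 h replicate 3. Gas5 was 0.40 ± 0.06 higher (edgeR adjusted p = 0.000363), and its change from 1 to 4 h of −0.11 ± 0.06 did not pass (edgeR adjusted p = 0.365). Myc, the growth-promoting transcription factor, was at 32.1, 18.9 and 21.6 CPM at 0 h, 22.7, 12.8 and 17.5 CPM at 1 h and 12, 6.26 and 8.95 CPM at 4 h. Replicate 1 was the highest at each time, and the 4 h libraries were all below the 0 h ones. The fall over 4 h was −1.41 ± 0.26 (edgeR adjusted p = 0.0017), with −0.85 ± 0.26 in the dark (edgeR adjusted p = 0.0804). Inhbb, an activin subunit, fell by 0.95 ± 0.13 (edgeR adjusted p = 5.43e-05), and Ctgf, a target of the Hippo effector YAP, fell by 0.73 ± 0.16 (edgeR adjusted p = 0.00642). Of 23 p53 targets 6 were higher and 1 lower at 4 h (median 0.25), beside 1.68% of all tested genes higher and 1.12% lower. Under the block 10 of the targets were higher and 1 lower. Without 4 h replicate 2 the number higher was 3 and without 0 h replicate 2 it was 4, and none was lower without any 1 of the 6 libraries compared.

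Few genes passed the test of the difference between the lit and the dark change. Rsrp1, an arginine- and serine-rich protein gene (ENSMUSG00000037266.18, GRCm38 chr4:134923592-134927671, plus strand), was at 126, 122 and 120.2 CPM, 130.1, 126 and 127 CPM and 179, 167 and 168 CPM in the lit cells. In the dark it was at 131, 120.4 and 117 CPM, 84.5, 93.2 and 83.8 CPM and 157, 181 and 172 CPM. The dark libraries at 1 h were below all others, with a first-hour change of −0.49 ± 0.06 (edgeR adjusted p = 1.58e-05), while the lit change was 0.06 ± 0.06 (edgeR adjusted p = 0.751). The differences between the lit and the dark change were 0.55 ± 0.08 in the first hour (edgeR adjusted p = 0.002) and −0.54 ± 0.08 from 1 to 4 h (edgeR adjusted p = 0.00152), and the first did not pass with batch 2 alone.

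Banp, an activator of CpG island promoters (ENSMUSG00000025316.16, GRCm38 chr8:121949750-122029258, plus strand), was another such gene. Its lit libraries held 50.3, 48.9 and 59.3 CPM, 60.2, 57.8 and 62.9 CPM and 61.1, 54.1 and 57.0 CPM, and its dark ones 40.7, 44.8 and 42.1 CPM, 37.0, 32.7 and 32.1 CPM and 61.2, 57.6 and 57.8 CPM. The dark libraries at 1 h lay below every lit library, and the groups overlapped at 4 h. The difference in the 1 to 4 h change was −0.87 ± 0.10 (edgeR adjusted p = 1.87e-05). Gm20388 overlaps Banp on the same strand, so reads could have been shared or dropped. Zfp296, a zinc finger protein of pluripotent cells, was at 60.7, 73.5 and 74.3 CPM, 50.5, 48.0 and 49.1 CPM and 67.0, 61.6 and 68.3 CPM in the light and at 49.4, 48.2 and 45.4 CPM, 31.9, 27.3 and 27.7 CPM and 60.5, 65.2 and 78.9 CPM in the dark. The 1 h libraries were the lowest in each condition, and the difference of −0.82 ± 0.13 in the later change passed (edgeR adjusted p = 0.00283). Gemin7 overlaps Zfp296 on the opposite strand.

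Socs3, the feedback inhibitor of LIF and STAT3 signalling, was at 112, 115 and 105 CPM at 0 h, 162, 123 and 174 CPM at 1 h and 146, 144 and 142 CPM at 4 h in the light. In the dark it was at 90.6, 117 and 103 CPM, 87.2, 81.6 and 73.0 CPM and 117, 122 and 117 CPM. At 1 h all lit libraries exceeded all dark ones. The lit rise of 0.47 ± 0.10 (edgeR adjusted p = 0.00411) lost its call without 1 h replicate 3 (adjusted p = 0.058). The difference from the dark change of 0.83 ± 0.14 (edgeR adjusted p = 0.00816) was lost without lit 1 h replicate 1 (0.0644), lit 1 h replicate 3 (0.0739), dark 0 h replicate 2 (0.0722) or dark 1 h replicate 3 (0.0832), all adjusted p. Among 20 tested LIF and STAT3 genes, Socs3 was the 1 call of the first hour, beside 2.41% of all tested genes.

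**Figure D4:**
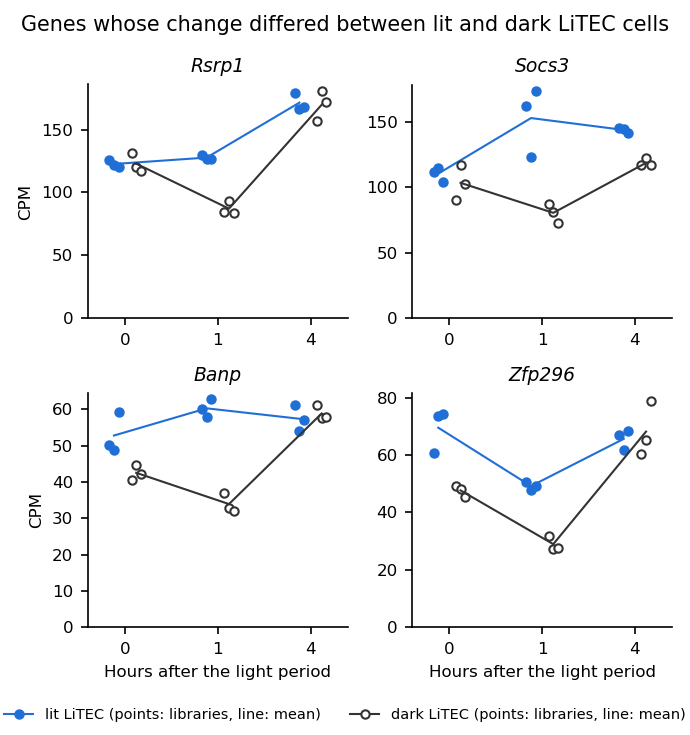
CPM (vertical axes) of Rsrp1, Socs3, Banp and Zfp296 in each lit and dark LiTEC library at 0, 1 and 4 h (horizontal axes), with lines through the group means of 3 libraries. For Banp the dark libraries at 1 h (32.1 to 37.0 CPM) lie below the lit ones (57.8 to 62.9 CPM), and at 4 h the 2 sets overlap.

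Against lit WT cells, 279 of the 439 first-hour calls were also called (63.6% of the LiTEC and 31.0% of the WT calls), 727 of the 1283 from 1 to 4 h (56.7% and 51.5%) and 308 of the 508 over 4 h (60.6% and 21.5%). The difference between the LiTEC and the WT change passed for 2 genes from 0 to 1 h (0.011%), none from 1 to 4 h (0%) and 2 from 0 to 4 h (0.011%). With the block the counts were 6, 0 and 8. For the 1 to 4 h step 462 genes had an unadjusted p under 0.05 in edgeR, and DESeq2 called none either. The first and the last step had the same 2 genes. Lrrc75aos2, an antisense RNA gene, was at 6.48, 7.68 and 7.19 CPM, 11.8, 11.8 and 11.8 CPM and 6.71, 6.14 and 6.75 CPM in LiTEC cells and at 2.59, 2.74 and 1.73 CPM, 13.3, 15.3 and 12.7 CPM and 7.63, 6.21 and 8.61 CPM in WT cells. The lit WT libraries at 0 h were the low ones, and the differences in change were −1.79 ± 0.22 in the first hour and −1.76 ± 0.23 over 4 h (edgeR adjusted p = 3.96e-05 and 0.000142). Snord43, a snoRNA gene inside Rpl3 on the same strand, showed the same pattern, with differences of −1.62 ± 0.25 and −1.54 ± 0.25 (edgeR adjusted p = 0.00138 and 0.00375), the later one lost without WT 0 h replicate 1 (adjusted p = 0.081). Counts over a snoRNA gene in a poly(A) library can come from its host transcript.

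Most identity genes of naive ESCs did not pass in any step. Pou5f1, the pluripotency factor OCT4, was at 410.3, 312 and 362 CPM, 397, 309.9 and 349 CPM and 389, 313 and 333 CPM, with overlapping groups and replicate 1 the highest at each time. Nanog, Esrrb and Klf4, factors of the naive network, were not called in any of the 3 comparisons, with log2 fold changes over 4 h of −0.03 ± 0.10, 0.01 ± 0.06 and 0.26 ± 0.09. Sox2, the partner of OCT4, rose by 0.28 ± 0.07 in the first hour (edgeR adjusted p = 0.0148), a call lost without 0 h replicate 1 (adjusted p = 0.081) or 1 h replicate 1 (adjusted p = 0.056). Over all tested genes 1.41%, 3.78% and 1.68% were called higher in the 3 steps, and 1.01%, 3.27% and 1.12% lower. Of 26 tested naive pluripotency genes 2 rose and 1 fell in the first hour, and 1 rose and 2 fell from 1 to 4 h. From 0 to 4 h, 1 of them was lower at 4 h. These small counts moved with single libraries: the first 2 became 0 without 0 h replicate 1 or 1 h replicate 1 and 1 without 0 h replicate 2 or 1 h replicate 3. From 1 to 4 h the 2 that fell became 1 without 1 h replicate 2, 1 h replicate 3 or 4 h replicate 3 and 0 without 4 h replicate 2. The last 1 became 0 without any 1 library but 0 h replicate 3, and the block gave 2 higher and 4 lower from 1 to 4 h, and 1 and 3 over 4 h. None of 16 tested Wnt genes and none of 23 tested genes of cholesterol synthesis was called in any of the 3 comparisons. In the dark 5 cholesterol genes rose from 1 to 4 h, where 3.96% of all tested genes were called higher. No cholesterol gene passed the test of the difference between the lit and the dark change in that step. Of 79 tested ribosomal protein genes, Rpl24 was the 1 call (0.71 ± 0.16 in the first hour, edgeR adjusted p = 0.00831), lost without 0 h replicate 1 (adjusted p = 0.0878) or 1 h replicate 1 (adjusted p = 0.0771). The reference genes Gapdh and Actb were not called, with changes over 4 h of 0.06 ± 0.06 and −0.15 ± 0.06, although the block called Actb (−0.15, edgeR adjusted p = 0.0372).

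**Figure D5:**
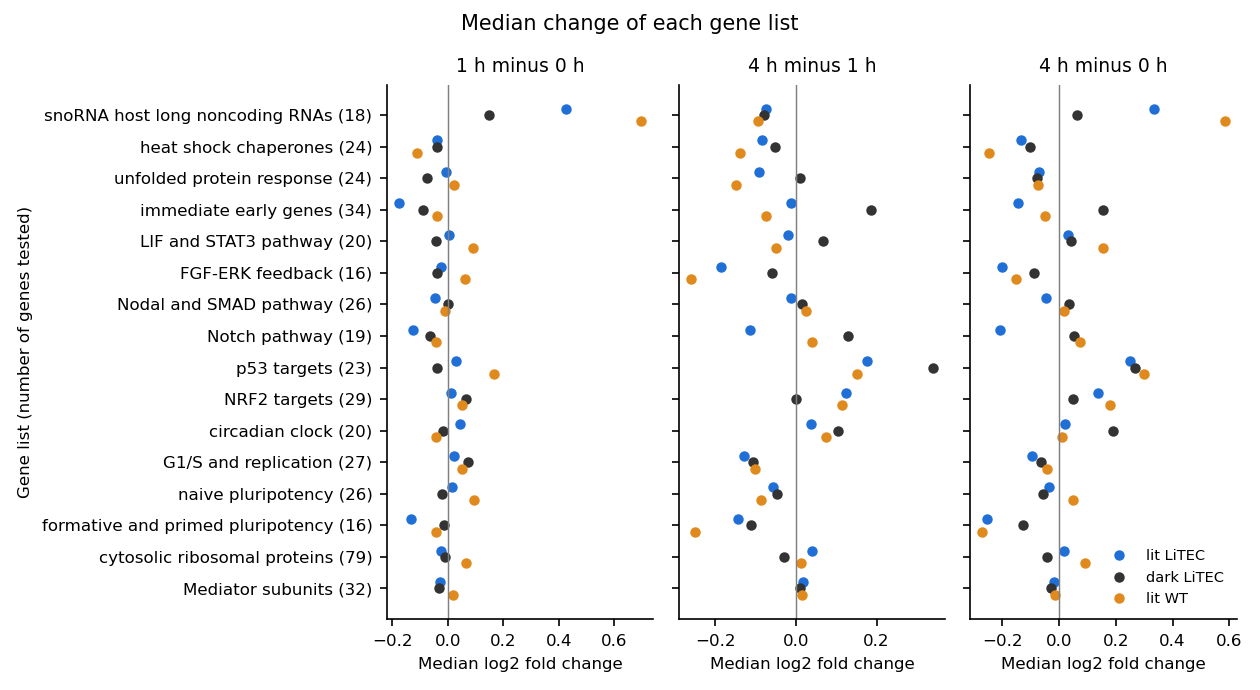
Median log2 fold change of 16 gene lists (rows) in lit LiTEC, dark LiTEC and lit WT cells for the 3 time steps (panels), each over the tested members of the list. The snoRNA host genes lie at 0.42 in lit LiTEC, 0.15 in dark LiTEC and 0.70 in lit WT cells from 0 to 1 h, and the p53 targets at 0.18 and 0.34 in lit and dark LiTEC cells from 1 to 4 h.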

How the data were processed

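The authors deposited 1 table of raw counts per gene for 36 libraries. Per the submitters' processing notes, reads were checked with FastQC and counted with featureCounts on mm10/GRCm38; the aligner, strand setting and versions were not given in the sources used here. Of 54842 genes, 18193 passed filterByExpr (minimum count 10). All 36 libraries were fitted with edgeR 4.0.16 (R 4.3.3, limma 3.58.1), TMM normalization, 12 group means and a batch term (23 residual degrees of freedom); glmQLFTest gave 2-sided p-values, with Benjamini-Hochberg adjustment across the 18193 genes and calls at an adjusted p under 0.05. The SE is the absolute log2 fold change divided by the square root of F. CPM used TMM-scaled library sizes. Library totals were 11132970 to 21842256.

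The 9 lit LiTEC libraries are defined by labels, but this set, the gene lists and some fixed genes were chosen with earlier results of these data known. Named genes were the 12 higher and 12 lower called genes with the largest absolute change that reached a mean of 5 CPM in either group compared, up to 4 called members of each list, up to 6 higher and 6 lower genes of each difference test, and 24 fixed genes; the text describes a selection of them. Gene lists (31, with 659 tested members) are described by counts and medians. Same-numbered libraries of the 3 lit groups had deviations correlated at 0.296 to 0.498, and each library correlated best with its own number, so the numbers pair the libraries. The main fit, with its batch term, does not use the full pairing, so its calls are not paired tests. The replicate block does use it. Alternatives were a replicate block, no batch term, batch 2 alone, compared groups only, RLE size factors, DESeq2 1.42.0, no filter, a mean of at least 5 CPM, removal of Gm26917 and Gm42418, each lit LiTEC, dark LiTEC and lit WT library left out, and, chosen after seeing the data, the 9 lit LiTEC libraries alone. The dark WT libraries, of which 4 h replicate 3 held 26.1% Gm26917, were not left out singly; the fits of compared groups only hold none of them. The fit was tested on simulated data. Promoters came from RefSeq (GRCm38.p6).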

Additional observations from a re-analysis of the deposited data

Results flagged for a closer look

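The change over a time step differed between lit and dark LiTEC cells for these genes, by the test of the difference itself (edgeR, all log2 scale). In the first hour Rsrp1 differed by 0.55 and Socs3 by 0.83. From 1 to 4 h Rsrp1 differed by −0.54, Banp by −0.87, Zfp296 by −0.82 and the low-count gene Trpc5os by 2.35 (adjusted p = 0.0138, lost without lit 1 h replicate 3, lit 4 h replicate 2, dark 1 h replicate 2 or 3, or dark 4 h replicate 1 or 2). From 0 to 4 h 6 genes differed: Ripk4 by −1.0, Gm37310 by 1.88, Zfp941 by 0.92, Snhg4 by 0.72, Gm43360 by −1.03 and A130012E19Rik by −1.14. Their adjusted p values lay between 0.00969 and 0.0493, and each lost its call in at least 1 fit with a library left out: Ripk4 without dark 0 h replicate 3 (adjusted p = 0.0561), and the other 5, besides further libraries, without any 1 of the 3 dark 4 h libraries.

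The change differed between lit LiTEC and lit WT cells for Lrrc75aos2, by −1.79 in the first hour and −1.76 over 4 h, and for Snord43, by −1.62 and −1.54.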

How the results depend on the processing

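No result reversed its direction under any alternative. The numbers below are counts of called genes from 0 to 1 h, 1 to 4 h and 0 to 4 h, whose main values were 439, 1283 and 508. Without a batch term they were 250, 523 and 159, with batch 2 alone 133, 251 and 42, and with the replicate block 626, 2088 and 1045. DESeq2 gave 471, 1446 and 704. A mean of at least 5 CPM gave 276 in the first hour. With 1 library left out the ranges were 214 to 355, 665 to 893 and 217 to 369. Of the genes called in batch 2 alone that all 36 libraries also tested (131, 251 and 42), 123, 245 and 39 had the same sign in batch 1. RLE size factors, removal of Gm26917 and Gm42418, the compared groups only and the 9 lit LiTEC libraries alone moved these counts by less than 1.5 times.

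The difference between lit and dark LiTEC cells (2, 4 and 6 genes) passed for 8, 13 and 18 genes with the replicate block, 19, 23 and 40 with no filter and 9, 7 and 19 with DESeq2. It passed for 0 in the first hour and 2 over 4 h with batch 2 alone, for 0 over 4 h without a batch term, and for 7 and 11 in the later steps with the compared groups only. The ranges with 1 library left out were 1 to 4, 3 to 5 and 0 to 8. The difference between lit LiTEC and lit WT cells (2, 0 and 2 genes) passed for 6, 0 and 8 with the block, 40, 9 and 54 with no filter, 5 in the first hour with DESeq2, and 0 from 0 to 1 h and from 0 to 4 h with batch 2 alone. With 1 library left out it passed for 2 to 3, 0 and 1 to 2.

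Of 45, 75 and 62 calls of named genes in the 3 steps, 22, 42 and 27 held without each library and 15, 22 and 14 in every alternative. Besides those given with the results, the block called Slc30a1 (−0.34, adjusted p = 0.0182) and Cdkn1a (0.34, adjusted p = 0.0216) from 0 to 4 h, and it changed no other call of a named gene in these comparisons. With 3 libraries a group, genes near 1 CPM such as Atf3 and Hspa1a rest on few counts.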

Other observations

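Further gene groups of the lit LiTEC cells are given here as counts. Over all tested genes 3.78% were called higher and 3.27% lower from 1 to 4 h, and 1.41% and 1.01% in the first hour. Of 26 tested Nodal and SMAD genes, 1 fell in the first hour, and 2 rose and 2 fell from 1 to 4 h. Of 19 tested Notch genes, 2 rose and 1 fell from 1 to 4 h, while Notch1 held its call without each library. Of 35 tested genes of RNA polymerase II and elongation, 3 rose from 1 to 4 h and none fell, and 1 rose without 1 h replicate 2, 4 h replicate 2 or 4 h replicate 3. One of them was Ccnt2, a cyclin of the elongation kinase P-TEFb, with a log2 fold change of 0.28 ± 0.06 (edgeR adjusted p = 0.00174), a call lost with batch 2 alone. Of 32 tested Mediator subunits, 1 rose and 1 fell in that step, and the riser was Med4 (0.27 ± 0.06, edgeR adjusted p = 0.00741), a call lost with batch 2 alone, without a batch term or with no filter. Of 25 tested targets of ATF4, 1 rose in the first hour and 2 fell from 1 to 4 h, and of 30 tested genes of hypoxia and glycolysis 1 rose and 1 fell from 1 to 4 h. Except for the 1 Nodal gene of the first hour, each of these counts lost at least 1 call when some single library was left out.

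The 12 named genes with the largest rise from 1 to 4 h included Ccng2, Eno2 and Kifc2. Ccng2, an unconventional cyclin of quiescent cells, rose by 1.25 ± 0.24 (edgeR adjusted p = 0.00103), and its change in the dark was 1.09 ± 0.24 (edgeR adjusted p = 0.00328). Eno2, the neuronal enolase, rose by 1.13 ± 0.19 (edgeR adjusted p = 0.000316), and Kifc2, a kinesin, by 1.01 ± 0.16 (edgeR adjusted p = 0.000145).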
